A study of Homo sapiens with 6 samples.

Results

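Transcripts of 9 genes that detect double-stranded RNA (dsRNA) or relay that detection were examined in BT-549 cells, an established human triple-negative breast cancer line, with and without silencing of the transcription factor IRF1. The members are DDX58 (the listed symbol of RIGI, which encodes RIG-I), IFIH1 (MDA5), DHX58 (LGP2), TLR3, ZBP1, EIF2AK2 (PKR), ADAR, MAVS and TICAM1 (TRIF). They are a list of symbols set by their known roles and drawn up when earlier results of these data were known, so their counts are a description. All 9 were found among the 37887 symbols listed, and 8 of the 9 had enough counts to be tested, while ZBP1 did not. RNA was sequenced from 3 control cultures given 0.1% DMSO and 3 shIRF1 cultures given 500 ng/ml doxycycline, which switches on an IRF1 shRNA from a tet-inducible vector. By their titles the controls carried a control shRNA, but the series design describes 1 line with the IRF1 shRNA, given either agent. In both readings doxycycline was given to the silenced cultures alone, so the agent and the hairpin cannot be told apart. If the titles hold, the groups were also separate lines, and differences between the lines cannot be told apart from silencing either. A single IRF1 hairpin and a single cell line were used.

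Cytosolic dsRNA is detected by the RIG-I-like receptors (RLR). RIG-I and MDA5 bind viral or endogenous dsRNA and signal through the mitochondrial adaptor MAVS to the kinases that switch on type I IFN genes, while LGP2 lacks the signaling domains and tunes the other two. TLR3 detects dsRNA in endosomes and signals through TICAM1. PKR halts translation on binding dsRNA, ZBP1 detects left-handed nucleic acid and triggers cell death, and ADAR edits adenosines in dsRNA and thereby keeps cellular RNA from activating these sensors. Many of these genes are themselves induced by IFN through IFN-stimulated response elements (ISRE), the sites to which IRF1 and other IRF proteins bind.

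The stretches around the transcription starts are shown because several members carry the letters of an ISRE close to the start. RefSeq promoters (GRCh38.p14, 250 bases before to 50 bases from the start on) were matched for 7 of the 9 members, ADAR with 3 starts. The ISRE core was searched as GAAANNGAAA on both strands and the gamma-activated sequence (GAS) core as TTCNNNGAA, which reads the same on both strands. Capitals mark the matches, and positions count from +1 at the start with no position 0.
IFIH1, minus strand, chr2:162318675-162318854, positions -170 to 10: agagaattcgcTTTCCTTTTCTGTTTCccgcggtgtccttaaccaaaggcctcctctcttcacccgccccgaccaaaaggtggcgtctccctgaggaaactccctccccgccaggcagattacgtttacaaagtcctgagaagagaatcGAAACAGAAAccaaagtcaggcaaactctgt
TLR3, plus strand, chr4:186069096-186069165, positions -60 to 10: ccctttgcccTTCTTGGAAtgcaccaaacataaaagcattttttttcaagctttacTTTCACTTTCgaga
EIF2AK2, minus strand, chr2:37156971-37157040, positions -60 to 10: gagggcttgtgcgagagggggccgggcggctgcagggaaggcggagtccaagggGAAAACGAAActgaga
MAVS, plus strand, chr20:3846774-3846843, positions -60 to 10: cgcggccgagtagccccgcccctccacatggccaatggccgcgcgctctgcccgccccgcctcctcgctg
TICAM1, minus strand, chr19:4831703-4831772, positions -60 to 10: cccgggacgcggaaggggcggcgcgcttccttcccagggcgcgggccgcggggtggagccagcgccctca

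The ISRE core was found in the promoters of 3 members. IFIH1 held 3 matches, of which GAAACAGAAA lay at positions -21 to -12 on the gene strand, and TTTCCTTTTC (-159 to -150) and TTTCTGTTTC (-153 to -144) overlapped on the opposite strand. TLR3 held TTTCACTTTC across its RefSeq start (-4 to 6, opposite strand), and EIF2AK2 held GAAAACGAAA across its RefSeq start (-6 to 4). Positions depend on the start used. In GENCODE release 29 the EIF2AK2 gene begins at 37157065, which places this match (chr2:37156977-37156986) inside the gene. Of all 35116 RefSeq promoters of this length, 3.57% held the ISRE core. TLR3 was also the member with GAS core matches, at -178 to -170 and at -50 to -42, where 7.66% of all promoters held one. No match to either core was found in the windows of DDX58, MAVS, TICAM1 or the 3 ADAR starts.

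In DDX58 a related sequence with 1 base fewer between the repeats, GAAANGAAA, stood further upstream of the RefSeq start. This spacing was searched after the DDX58 promoter had been read, and 3.12% of all promoters held it on either strand. None of the other member promoters held this spacing. Because it was picked after the sequence was read, no conclusion is drawn from it.
DDX58, minus strand, chr9:32526326-32526416, positions -220 to -130: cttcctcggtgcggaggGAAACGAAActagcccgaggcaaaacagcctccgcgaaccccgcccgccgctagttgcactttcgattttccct
The match GAAACGAAA lay at -203 to -195 from the RefSeq start (chr9:32526391-32526399). In GENCODE release 29 the gene begins nearer to it, at 32526324. A match is a description of letters and does not show that a factor binds there. Other spacings of the repeats were not searched, so the absence of a match does not show that a site is absent.

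**Figure D1:**
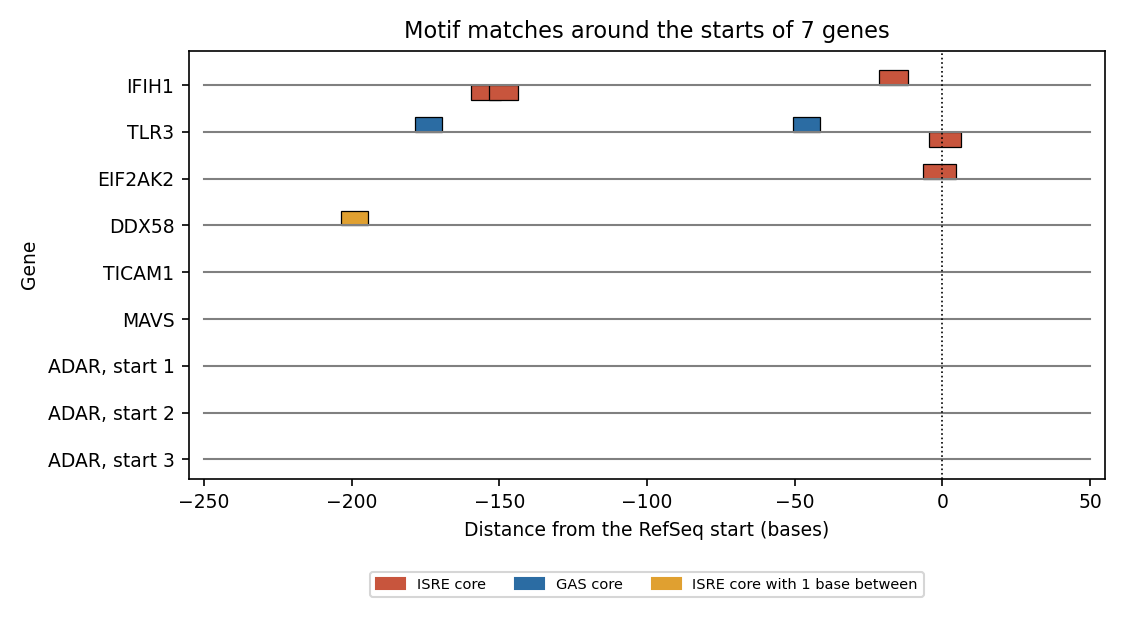
Matches to the ISRE core (red), the GAS core (blue) and the ISRE core with 1 base between the repeats (yellow), plotted by distance from the RefSeq start in bases for 7 genes. Boxes above a line are on the gene strand and below it on the opposite strand, except that the GAS core reads the same on both. IFIH1, TLR3 and EIF2AK2 have an ISRE core match at or within 21 bases of the start, while TICAM1, MAVS and the 3 starts of ADAR have no match.

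Values are given as TMM-scaled CPM, a gene's share of the library after scaling for composition, as mean ± SD with n = 3 per group. Total counts per library were between 55143808 and 160436234, with shIRF1 replicate 2 the shallowest, and 3 counts corresponded to between 0.0182 and 0.0541 CPM. The target of the hairpin, IRF1, measured 45.3, 48.1 and 51.5 CPM in the 3 controls against 13.8, 14.9 and 14.6 CPM in the 3 shIRF1 libraries, a decrease to 29.9% of control. Of the receptors that define the triple-negative label by their absence, ESR1 was at no more than 0.144 CPM and PGR at no more than 0.325 CPM in any library, although ERBB2 was at 35.0 to 54.8 CPM. VIM and ZEB1, mesenchymal genes that BT-549 expresses, summed to 974 to 1035 CPM in control and 672 to 740 CPM in shIRF1 samples. The mean of VIM went from 918 to 625 CPM and that of ZEB1 from 87.2 to 79.4 CPM. The epithelial genes CDH1, EPCAM, KRT8 and KRT18 summed to 8.38 to 8.90 and 3.91 to 4.46 CPM. They did not shift together. By group mean, KRT18 went from 6.34 to 2.92 CPM and KRT8 from 1.52 to 0.441 CPM. CDH1 was at 0.676 and 0.673 CPM, and EPCAM at 0.071 and 0.110 CPM. The leukocyte, T cell and endothelial genes PTPRC, CD3E and PECAM1 summed to no more than 0.901 CPM, with CD3E at 0 in 5 of 6 libraries. The part of these shifts in the results was not tested. In bulk RNA, fewer expressing cells and less RNA per cell cannot be told apart.

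All 8 members tested were lower in shIRF1 samples, past an adjusted p of 0.05 in the edgeR quasi-likelihood test (Benjamini-Hochberg over all genes), and 0 were higher. Of all 18851 genes tested, 26.4% were lower and 24.1% higher by the same test. At a fold change over 2 there were 5 members, the sensors IFIH1, TLR3, DDX58 and DHX58 and the kinase EIF2AK2, where 4.43% of all genes tested were lower to this extent. The median log2 fold change was -1.88 for the 8 members and -0.0024 for all genes tested. The CPM ranges of the groups did not overlap for any of the 8 members tested, where 29.5% of all genes tested were lower without overlap. Among the controls, replicate 3 had the highest CPM for 8 of the 9 members. Among the shIRF1 libraries, replicates 1, 2 and 3 were highest for 3, 2 and 4 members. The share of all genes highest in each library was not determined, so nothing is concluded from these counts.

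**Figure D2:**
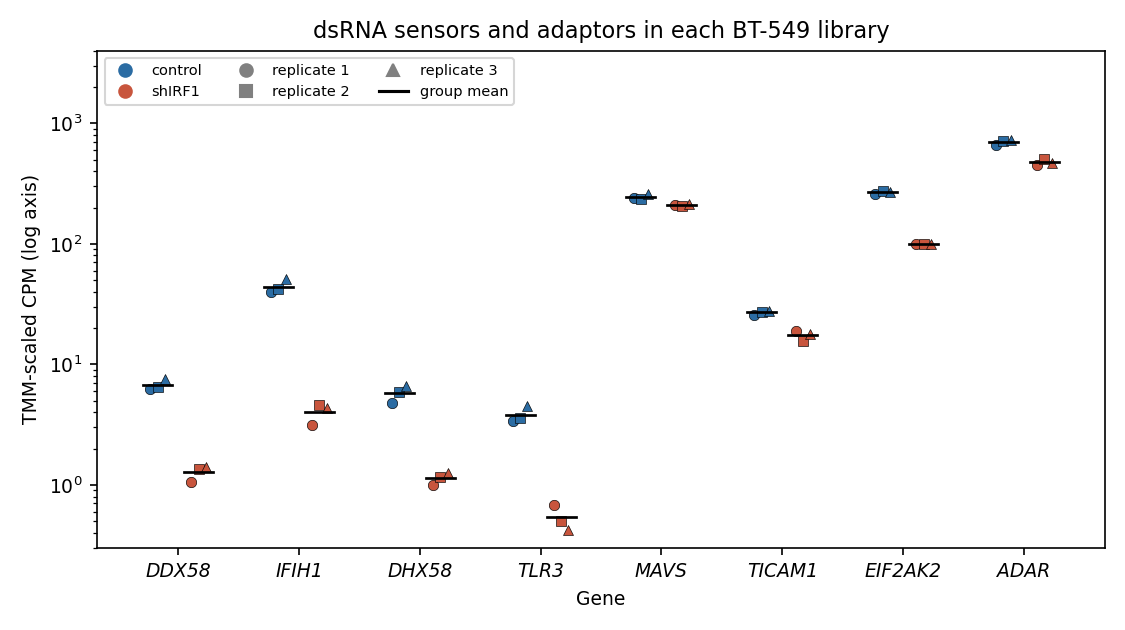
TMM-scaled CPM (log axis) of the 8 members tested in each library, with control in blue, shIRF1 in red, marker shapes for replicates 1 to 3 and black bars for group means. In each gene the 3 shIRF1 points lie below the 3 control points, from a wide gap for IFIH1 (39.6 to 50.9 against 3.16 to 4.58 CPM) to a narrow one for MAVS (237 to 258 against 208 to 212 CPM).

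IFIH1, which encodes the sensor of long dsRNA MDA5, fell most. The 3 controls held 39.6, 41.9 and 50.9 CPM and the 3 shIRF1 libraries 3.16, 4.58 and 4.34 CPM. The lowest control was thus 8.65 times the highest shIRF1 library. The mean went from 44.1 ± 5.97 to 4.02 ± 0.759 CPM (SD), or 9.12% of control, with a log2 fold change of -3.47 ± 0.12 (SE) and an adjusted p of 2.53e-13 in the edgeR test. When genes were ordered from the lowest log2 fold change, IFIH1 stood at place 42 of 18851. The gene lies at chr2:162267079-162318703 on the minus strand (GRCh38, GENCODE release 29).

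DDX58 encodes RIG-I, which detects short dsRNA with a triphosphate end. Its CPM was 6.28, 6.46 and 7.59 in the controls and 1.06, 1.35 and 1.40 in the shIRF1 libraries, so that the groups were apart by 4.47 times at their nearest values. DDX58 fell from 6.78 ± 0.707 to 1.27 ± 0.188 CPM (SD, n = 3), or 18.7% of control, with a log2 fold change of -2.42 ± 0.12 (SE) and an edgeR adjusted p of 3.95e-11. It stood at place 110 from the lowest log2 fold change, and lies at chr9:32455705-32526324 on the minus strand.

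DHX58 encodes LGP2, the RLR that lacks the signaling domains. It was counted at 4.82, 5.92 and 6.57 CPM in control and at 0.992, 1.15 and 1.26 CPM in shIRF1 samples, again with no overlap. DHX58 fell from 5.77 ± 0.883 to 1.13 ± 0.134 CPM (SD, n = 3), or 19.7% of control. On the log2 scale this was -2.34 ± 0.13 (SE; edgeR adjusted p 1.78e-10), at place 114 in the order. DHX58 lies at chr17:42101404-42112733 on the minus strand.

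IFIH1 was lower relative to both other RLR genes in every shIRF1 library than in any control. The ratio of IFIH1 to DDX58 counts, in which library scaling cancels, was 6.30, 6.49 and 6.71 in control and 2.99, 3.39 and 3.09 in shIRF1 replicates 1 to 3. On the log2 scale this ratio went from 2.70 ± 0.05 to 1.66 ± 0.09 (SD, n = 3 each), a difference of -1.04, with no overlap between the groups. The ratio of IFIH1 to DHX58 shifted by -1.12 on the log2 scale, from 2.94 ± 0.11 to 1.81 ± 0.16. Both gave p = 0.1 in a two-sided exact permutation test, or 0.15 after Benjamini-Hochberg adjustment over the 3 ratios, and 0.1 is the smallest p that 3 against 3 samples allow. The ratio of DHX58 to DDX58 was -0.24 ± 0.13 in control and -0.16 ± 0.07 in shIRF1 samples on the log2 scale, a difference of 0.080 with overlapping ranges (p = 0.5, exact permutation test, 0.5 adjusted). The 95% intervals of the log2 fold changes were -3.72 to -3.22 for IFIH1, -2.68 to -2.16 for DDX58 and -2.63 to -2.06 for DHX58.

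**Figure D3:**
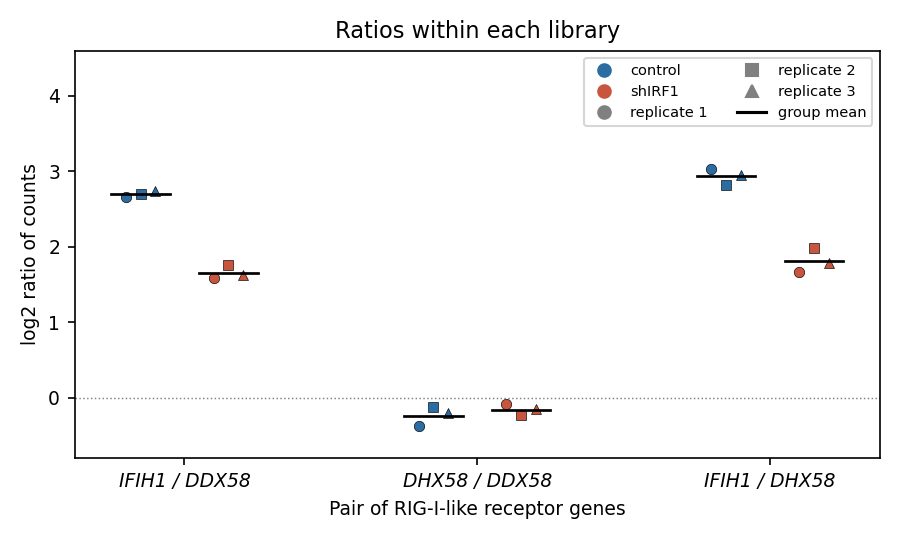
log2 ratio of counts for 3 pairs of RLR genes in each library, with control in blue, shIRF1 in red, marker shapes for replicates and black bars for group means. The ratios of IFIH1 to DDX58 and to DHX58 are lower by 1.04 and 1.12 in shIRF1 libraries, while that of DHX58 to DDX58 overlaps between the groups.

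Compared per kilobase of exon sequence, IFIH1 was the most abundant RLR transcript in both groups. It was at 8.64 ± 1.17 CPM per kb in control, against 1.56 ± 0.162 for DDX58 and 1.501 ± 0.230 for DHX58, whose levels did not differ beyond their spread. After silencing the values were 0.788 ± 0.149, 0.292 ± 0.043 and 0.295 ± 0.035 CPM per kb. IFIH1 made up 73.1% to 74.3% of the summed RLR level per kb in the control libraries and 55.3% to 59.5% in the shIRF1 libraries, which did not overlap. The summed level was 10.5 to 13.4 CPM per kb in control and 1.12 to 1.51 CPM per kb in shIRF1 libraries.

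TLR3, the endosomal dsRNA receptor, was the scarcest member tested and had the second lowest log2 fold change. Its CPM was 3.42, 3.57 and 4.50 in the controls, replicates 1 to 3 in order, against 0.683, 0.504 and 0.425 with silencing. The lowest control was 5.005 times the highest shIRF1 value. TLR3 fell from 3.83 ± 0.587 to 0.537 ± 0.132 CPM (SD, n = 3), or 14.04% of control, with a log2 fold change of -2.84 ± 0.17 (SE) and an edgeR adjusted p of 4.18e-10. The shIRF1 libraries held between 28 and 86 counts of TLR3, and its SE was the largest of the 8 members. The gene lies at chr4:186069152-186088069 on the plus strand.

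ZBP1 was close to the limit of detection. Counts were 10, 6 and 17 in the controls and 0, 0 and 4 in the shIRF1 libraries, or 33 against 4 over the groups. In CPM these were 0.081, 0.049 and 0.114 against 0, 0 and 0.024, and in shIRF1 replicate 2 a count of 0 allows up to 0.0541 CPM, above the value of control replicate 2. If both mates of a pair were counted, as appears likely, that limit would be higher and the counts would stand for fewer fragments. ZBP1 did not pass the filter on low counts and has no value in the main test. With no filter, edgeR put ZBP1 at -2.82 on the log2 scale (adjusted p 0.0233), and DESeq2 put it at -3.00 (adjusted p 0.0460). The edgeR adjusted p was 0.0641 when shIRF1 replicate 1 was left out, so no call is made. The gene lies at chr20:57603846-57620576 on the minus strand.

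EIF2AK2 encodes PKR, the kinase that phosphorylates the translation factor eIF2α. The controls were at 259, 274 and 269 CPM and the shIRF1 libraries at 99.95, 99.8 and 99.0 CPM. Relative to the mean this was the narrowest spread of any member, with an SD of 2.88% in control and 0.53% in shIRF1 samples. EIF2AK2 fell from 267 ± 7.70 to 99.6 ± 0.528 CPM (SD, n = 3), or 37.2% of control. The log2 fold change of -1.42 ± 0.04 (SE) had an edgeR adjusted p of 3.92e-14, smaller than that of IFIH1, and stood at place 394. Its 95% interval of -1.51 to -1.34 lay outside those of the RLR genes and TLR3. EIF2AK2 lies at chr2:37099210-37157065 on the minus strand, and 401 of its exon bases (3.73%) are shared with a processed pseudogene and 35 with GPATCH11, both on the opposite strand.

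ADAR was the most abundant member and changed by less than 2-fold. It was at 667, 708 and 721 CPM in control and at 454, 502 and 469 CPM in shIRF1 samples. ADAR fell from 699 ± 28.3 to 475 ± 24.4 CPM (SD, n = 3), or 68.0% of control, with a log2 fold change of -0.56 ± 0.05 (SE) and an edgeR adjusted p of 3.46e-08. The ratio of ADAR to EIF2AK2, the kinase whose activation by cellular dsRNA it limits, was higher in every shIRF1 library than in any control. There were 2.57, 2.58 and 2.69 counts of ADAR per count of EIF2AK2 in control libraries and 4.54, 5.02 and 4.74 in shIRF1 libraries. Gene counts do not separate the IFN-inducible form of ADAR from the constitutive one. The gene lies at chr1:154582057-154628013 on the minus strand.

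Both adaptors changed by less than 2-fold. TICAM1, which links TLR3 to the IFN-inducing kinases, was at 25.6, 27.3 and 27.9 CPM in control and at 19.1, 15.6 and 17.8 CPM in shIRF1 samples. TICAM1 fell from 26.9 ± 1.199 to 17.5 ± 1.73 CPM (SD, n = 3), or 64.9% of control, with a log2 fold change of -0.62 ± 0.07 (SE) and an edgeR adjusted p of 1.31e-06. It lies at chr19:4815932-4831704 on the minus strand.

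MAVS, the mitochondrial adaptor of RIG-I and MDA5, had the smallest change. The controls were at 240, 237 and 258 CPM and the shIRF1 libraries at 211, 208 and 212 CPM, so that the lowest control was 1.12 times the highest shIRF1 library. MAVS fell from 245 ± 11.1 to 210 ± 2.13 CPM (SD, n = 3), or 85.8% of control, with a log2 fold change of -0.22 ± 0.04 (SE) and an edgeR adjusted p of 3.48e-04. By log2 fold change it stood at place 5635, while TICAM1 stood at 2133 and ADAR at 2459. Under scaling by library size only, which moved the median of all genes to 0.049, MAVS was at -0.17. It lies at chr20:3846799-3876123 on the plus strand.

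**Figure D4:**
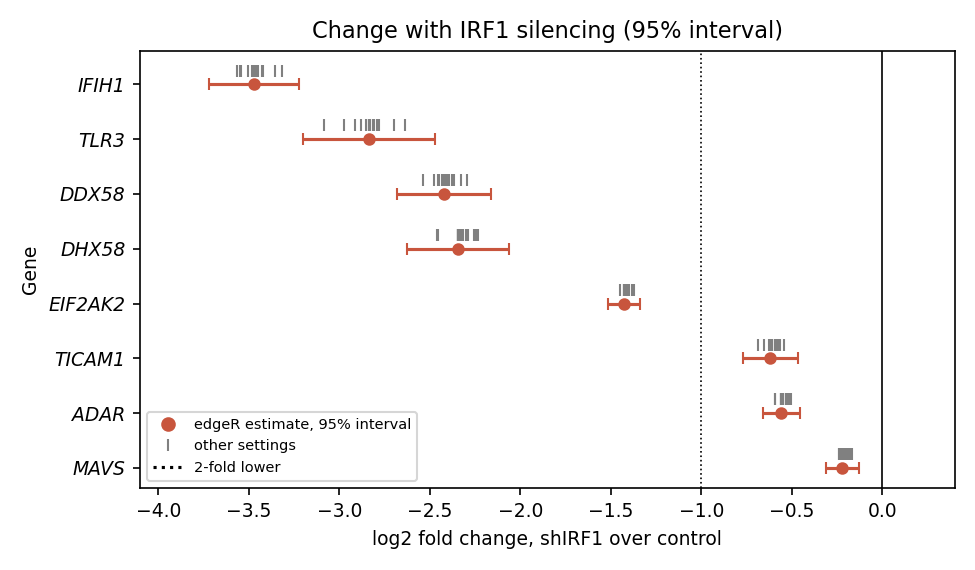
log2 fold change of the 8 members tested, shIRF1 over control, with edgeR estimates (red points), 95% intervals (bars) and the values under other settings (grey ticks). The RLR genes, TLR3 and EIF2AK2 lie below the dotted line at a 2-fold decrease, and TICAM1, ADAR and MAVS lie between it and 0.

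The order of the members by level also changed. Per kb in control, the order was ADAR (72.1 ± 2.92 CPM per kb), EIF2AK2 (24.9 ± 0.716), MAVS (20.8 ± 0.945), TICAM1 (10.1 ± 0.448), IFIH1 (8.64 ± 1.17), DDX58, DHX58, TLR3 (0.569 ± 0.087) and ZBP1 (0.015 ± 0.0060). The ranges of the neighbors TICAM1 and IFIH1 overlapped, as did those of DDX58 and DHX58. In shIRF1 samples MAVS (17.9 ± 0.181) stood above EIF2AK2 (9.26 ± 0.049), and IFIH1 (0.788) was well below TICAM1 (6.54 ± 0.646). The ratio of EIF2AK2 to MAVS counts was 1.04 to 1.16 in the control libraries and 0.467 to 0.480 in the shIRF1 libraries. Levels per kb used the summed exon length in GENCODE release 29, which can differ from the transcripts present.

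Other genes of dsRNA sensing were then examined from a list of 72 genes in 7 roles, also written with earlier results known, of which 71 were matched and 65 tested. There were 30 genes lower (46.2%) and 13 higher (20.0%) with an adjusted p under 0.05 in the edgeR test, where 26.4% and 24.1% of all genes tested were, and 6 lower and 0 higher with a fold change over 2, where 4.43% and 3.43% of all genes tested were. Under scaling by library size only there were 27 lower and 19 higher. The median log2 fold change of the list was -0.086. Among 16 tested cofactors and regulators of the RLRs, 10 were lower and 3 higher, namely YWHAE (log2 fold change 0.52), ITCH (0.20) and CYLD (0.19). Apart from DDX60 and TRIM14, the lower ones were ZC3HAV1 (-0.96), TRIM25 (-0.90), TRIM65 (-0.78), RNF135 (-0.49), YWHAH (-0.17), PPP1CA (-0.16), PPP1CC (-0.15) and PCBP2 (-0.14). YWHAE, a chaperone of RIG-I, had overlapping groups at 344 ± 86.2 and 494 ± 65.2 CPM (SD, n = 3). DDX60, a helicase proposed to assist RIG-I, fell from 40.2 ± 2.69 to 4.99 ± 0.696 CPM (SD, n = 3), a log2 fold change of -2.99 ± 0.09 (SE). TRIM14, an adaptor at MAVS, fell from 62.9 ± 6.02 to 10.8 ± 0.367 CPM, a log2 fold change of -2.54 ± 0.07. Both had lower values in every shIRF1 library than in any control, as had 29.5% of all genes tested.

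Of 21 genes of the relay from MAVS and TICAM1 to IFN genes, 9 were lower, 4 higher and 8 did not pass the threshold, with a median log2 fold change of -0.0031. The higher ones were AZI2 (0.29), TRAF2 (0.22), TRAF3 (0.18) and NFKB1 (0.17). Apart from IRF7, the lower ones were TRAF5 (-0.996), CASP8 (-0.75), TRADD (-0.72), IKBKE (-0.62), IKBKG (-0.36), FADD (-0.34), IRF3 (-0.22) and RELA (-0.21). TBK1, the kinase on which both adaptors converge, was at 69.4 ± 4.01 and 69.2 ± 3.37 CPM (log2 fold change -0.0031, edgeR adjusted p 0.966). IRF7, an IFN-inducible factor that activates IFN genes, was the sole one of these past a 2-fold change, and fell from 8.14 ± 0.969 to 2.97 ± 0.169 CPM (SD, n = 3; log2 fold change -1.45 ± 0.10, SE). Of the 5 tested partners of TLR3 and TICAM1 in endosomes, the trafficking protein UNC93B1 (-0.50) and the TICAM1 inhibitor SARM1 (-0.71) were lower and the chaperone HSP90B1 (0.29) was higher. Among 14 genes of the PKR axis and other dsRNA-binding proteins, 4 were lower and 4 higher, or 28.6% each, close to the 26.4% and 24.1% of all genes tested, and all by less than 2-fold. The lower ones were EIF2S1 (-0.51), which encodes the PKR substrate eIF2α, the eIF2α phosphatase subunits PPP1R15A (-0.80) and PPP1R15B (-0.19), and the PKR activator PRKRA (-0.22). The higher ones were the other eIF2α kinases EIF2AK3 (0.49) and EIF2AK4 (0.23), the PKR inhibitor DNAJC3 (0.20) and ILF2 (0.16). Of the 4 genes that limit endogenous dsRNA, the mitochondrial RNA exonuclease PNPT1 (-0.55) was lower and its helicase partner SUPV3L1 (0.20) higher. The genes of these roles and the RLR cofactors with a change under 2-fold were named after their values were seen.

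MLKL, the executor of necroptosis downstream of ZBP1, fell from 0.994 ± 0.086 to 0.263 ± 0.065 CPM (SD, n = 3; log2 fold change -1.99 ± 0.24, SE). CASP6 was also lower among the ZBP1 partners, and RIPK3, the kinase that ZBP1 engages, had at most 2 counts in any library and was not tested. The products of the pathway were scarce except for CCL5. IFNB1 had 18, 10 and 8 counts in control and 4, 2 and 6 counts in shIRF1 libraries and did not pass the filter. IFNL1, IFNL2 and IFNL3 had at most 2 counts in any library. IFNA1 was at 0.080 ± 0.034 and 0.161 ± 0.053 CPM (SD, n = 3; edgeR adjusted p 0.0951), and its counts are uncertain because IFN alpha genes are near-identical copies. Its values were higher in every shIRF1 library than in any control, as were those of 27.3% of all genes tested.

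The chemokine CCL5, which draws T cells, was at 11.9, 12.6 and 16.2 CPM in control and 1.81, 1.51 and 2.25 CPM in shIRF1 libraries. It fell from 13.6 ± 2.34 to 1.86 ± 0.373 CPM (SD, n = 3), a log2 fold change of -2.82 ± 0.13 (SE). CXCL10, also a T cell chemokine, had 26, 34 and 30 counts in control and 6, 0 and 8 counts in shIRF1 libraries, a log2 fold change of -2.52 ± 0.54. The largest adjusted p among the 6 genes past a 2-fold change, by edgeR, was 7.22e-04, for CXCL10.

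**Figure D5:**
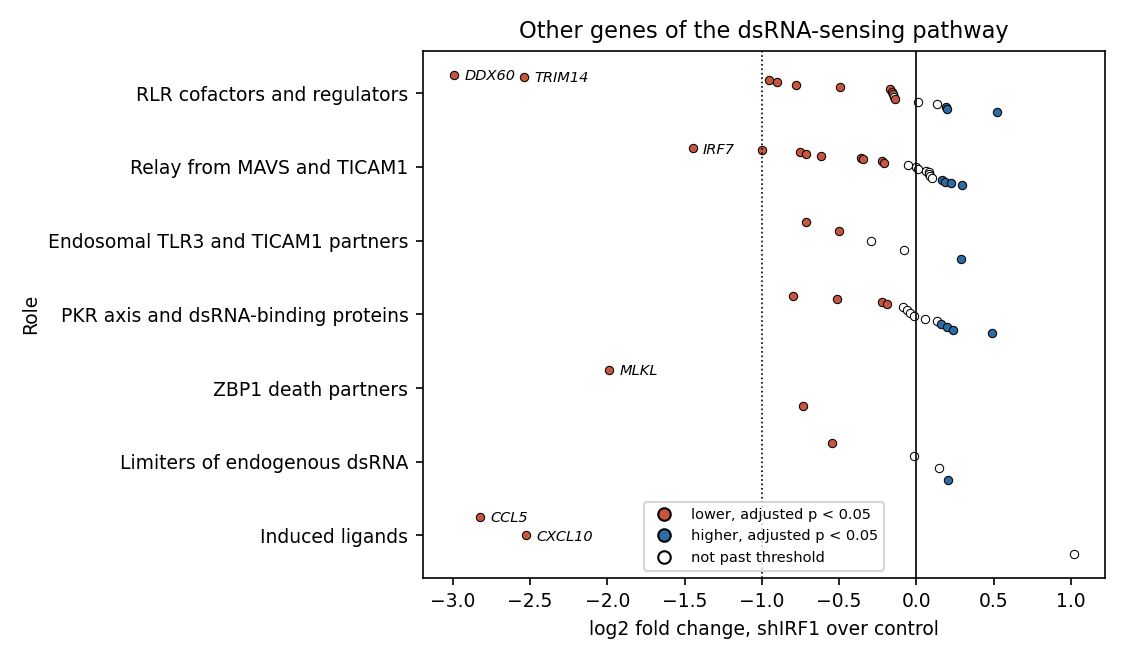
log2 fold change, shIRF1 over control, of 65 tested genes in 7 roles of dsRNA sensing, with genes lower (red) or higher (blue) at an adjusted p under 0.05 and others open. The 6 genes past a 2-fold decrease (dotted line) are named, and no gene passed a 2-fold increase.

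Genes with the profile most like that of IFIH1 over the 6 libraries were GBP4, GBP3, IFIT1, IFIT3 and SLC15A3. The measure was the root mean square difference of log2 CPM, each gene taken relative to its control mean, over genes that averaged 1 CPM or more. It was 0.065 for GBP4, which went from 14.4 to 1.31 CPM, and 0.193 for SLC15A3. The genes nearest to DDX58 were KCNK3 (0.073), EPSTI1, XAF1, CENPW and MEGF6 (0.141). KCNK3 encodes a potassium channel and went from 58.7 to 11.2 CPM.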

How the data were processed

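The authors deposited unnormalized counts by gene symbol for 6 libraries (TruSeq Stranded mRNA). The submitters' processing notes name STAR 2.7.9a, featureCounts and GRCh38.p7. The annotation release, the strand setting and the handling of mates in counting are not given in the sources used here. Among values of 2 to 11 counts, 72.1% to 75.2% per library were even, so mates of a pair appear to have been counted separately. An alternative with halved counts was run for this reason.

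Groups were compared with the quasi-likelihood test of edgeR 4.0.16 (R 4.3.3), a group-only design, TMM scaling and filterByExpr at 10 counts. P-values were adjusted over 18851 genes by Benjamini-Hochberg. The authors used DESeq2, run here as an alternative (DESeq2 1.42.0). The SE is the size of the log2 fold change divided by the square root of F. Floors of 3 counts cover counting error only. The labels describe triplicate cultures without stating independence, so p-values measure the spread between these samples, which may be technical. Named genes were the 9 members, IRF1, pathway genes past a 2-fold change with an adjusted p under 0.05, and the 5 genes nearest to IFIH1 and to DDX58. In these profiles 0.1 CPM was added before the log. Genes in counts of 5 or fewer, the lower genes among the RLR cofactors and the relay, and cell markers are also named. Members and lists were chosen with earlier results of these data known. The test was checked on simulated data. Replicate numbers did not pair the samples. Promoter sequences are from RefSeq (GRCh38.p14), and the promoters of DHX58 and ZBP1 were not analysed here. Locations and exon lengths are from GENCODE release 29 (GRCh38).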

Additional observations from a re-analysis of the deposited data

How the results depend on the processing

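Over the 17 other settings (DESeq2, other scalings and filters, the replicate block, halved or thinned counts, a threshold of 0.01, glmTreat and leaving out each library), 293 of 299 recomputed values held in direction and call, within 1.5 times for counts or within the replicate SD for ratios. The other 6 came from glmTreat, which tests against a 2-fold change by construction. MAVS (-0.22), ADAR (-0.56) and TICAM1 (-0.62) did not pass it, which left 5 members, 5 pathway genes lower and 0 higher. Among the values that held, the 3 ratios under the replicate block and the fold changes at the 0.01 threshold equal the main values by construction. Without each library in turn, log2 fold changes ran from -3.56 to -3.32 for IFIH1, -3.09 to -2.64 for TLR3, -2.54 to -2.29 for DDX58, -2.46 to -2.24 for DHX58 and -0.24 to -0.18 for MAVS. ZBP1 entered the test in 4 of these fits and ran from -6.27 without shIRF1 replicate 3, the one silenced library with counts, to -2.19 without shIRF1 replicate 1 (edgeR adjusted p 0.00661 and 0.0641). The first of these values depends on the prior count, since both remaining silenced libraries were at 0.

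Deviations of same-numbered samples correlated at -0.012, 0.033 and 0.021, so the numbers were not taken as pairs. As a block in the fit, the replicate number gave log2 fold changes of -3.48 for IFIH1, -2.43 for DDX58 and -0.22 for MAVS, and 8 members and 30 pathway genes were lower. It changed no call among the members. ZBP1, RIPK3 and the IFN genes had few counts in every library, which limits what can be read from them. Whether depth or low expression lay behind this was not tested.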
